A study of Homo sapiens with 79 samples.

Results

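The mRNAs of 10 genes were followed through formaldehyde RNA immunoprecipitation (fRIP) of 24 proteins: 9 that encode subunits or partners of the COMPASS histone methyltransferase complexes (WDR5, RBBP5, ASH2L, DPY30, SETD1A, SETD1B, HCFC1, MEN1 and CXXC1) and PHF8. They were chosen by gene symbol from the 48453 genes of the deposited table. All 10 passed the filter of at least 1 FPKM (fragments per kilobase of transcript, scaled to library size) in at least 2 libraries, which 25442 genes passed. Their 86 isoforms were taken from a table of 185661, and 79 of the 86 were tested. WDR5, RBBP5 and PHF8 were themselves among the proteins pulled down, so 3 of the mRNAs could be measured in the fRIP of the protein they encode.

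COMPASS complexes place methyl groups on lysine 4 of histone H3, a mark of active promoters and enhancers. SETD1A and SETD1B carry the catalytic SET domain, and WDR5, RBBP5, ASH2L and DPY30 form the core that every COMPASS methyltransferase needs for full activity. CXXC1 binds unmethylated CpG DNA and brings SETD1 to CpG island promoters, HCFC1 is a cell cycle cofactor shared with several chromatin complexes, and MEN1, the tumour suppressor menin, belongs to the complexes of KMT2A and KMT2B. PHF8 reads the methylated lysine 4 with its PHD finger and removes methyl groups from other histone lysines. Proteins that act on chromatin can be recovered with RNA, and fRIP asks which RNAs these are.

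All libraries came from K562, an established human leukemia line with erythroid features, grown unmodified and cross-linked with 0.1% formaldehyde. After lysis, an antibody against 1 protein recovered the RNA sequenced as fRIP, and RNA of the unselected lysate was sequenced as input. There were 70 fRIP libraries (22 proteins with 3 and EZH2 and STAG2 with 2) and 9 input libraries in 3 sets of 3. Each fRIP rests on 1 antibody, and CBX3 and phospho-CBX3, a form of CBX3, are counted as separate proteins. No library of an antibody without a target was analysed here. The study took STAG2, a cohesin subunit, as its control for background binding, and in its fRIP no member was called by limma (4 had an unadjusted p under 0.05, 3 also after adjustment; 4.34% of all genes called), with log2 fold changes against input from -0.51 (SETD1B) to 0.60 (RBBP5). The paper also reports that STAG2 fRIP strongly and reproducibly enriched a small set of genes, among them STAG2 itself. It proposes a potential role for these interactions, so STAG2 is not a plain background control. By the study's account, the replicates of a protein were made on separate days from separate lysates.

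Depth, estimated from the spacing of the lowest FPKM values, was 12000000 to 30700000 fragments for input, 8210000 to 28400000 for WDR5 fRIP, 6640000 to 8230000 for RBBP5 fRIP and 5160000 to 7960000 for PHF8 fRIP. All 10 K562 markers, among them GATA1 and the fetal globin genes, were at 1 FPKM or more in every input library. Of 6 markers of other cell types (CD3E, MS4A1, EPCAM, KRT5, ALB and COL1A1), 5 were under 1 FPKM in every input, while EPCAM (mean 36.2 FPKM) was not. PECAM1 could not be matched to the table, and the count does not cover every marker that was listed. The summed level of these 6 was 27.7 to 45.5 FPKM in input, 22.7 to 29.5 in WDR5 fRIP, 31.4 to 37.2 in RBBP5 fRIP and 27.7 to 35 in PHF8 fRIP, and its part in the results was not tested. The input sets differ, and the authors' pooled input values matched set 2 for WDR5 and RBBP5 and set 3 for PHF8. Values against the matched set are therefore given where they change a call.

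FPKM is scaled per length, so the levels of the genes can be compared in input. ASH2L mRNA was the highest (79.9 ± 6.43 FPKM, mean ± SD, n = 9), followed by DPY30 (32.8 ± 7.5). HCFC1 (24.7 ± 5.81), CXXC1 (23 ± 3.44), RBBP5 (22.8 ± 2), WDR5 (20.3 ± 4.44), PHF8 (17.7 ± 2.34) and MEN1 (15 ± 2.2) followed, and the ranges of neighbours in this order overlapped from DPY30 to MEN1. No library overlapped between ASH2L and DPY30 or between MEN1 and the genes below it. The mRNAs of the catalytic subunits were the scarcest, with SETD1A at 6.39 ± 1.11 FPKM and SETD1B at 6.04 ± 0.739, and these differed by less than their SD.

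WDR5 fRIP enriched the mRNA of WDR5 itself and that of SETD1B. WDR5, a propeller-shaped adaptor that holds the complex together, had 36, 34.7 and 63.7 FPKM of mRNA in the 3 WDR5 fRIP libraries against 15.7 to 31.2 in the 9 inputs. The groups did not overlap, but WDR5 fRIP replicate 3 and replicate 3 of input set 2 (31.2 FPKM) both stood above their own groups, as did RBBP5 fRIP replicate 3 (29.1 FPKM, against 17.3 and 20.3). Replicate 3 was likewise the highest in the other fRIPs matched to set 2, those of CHD1 (27.1 FPKM), NUP98 (42.4) and PCAF (42.3). The log2 fold change of WDR5 mRNA in WDR5 fRIP was 1.07 ± 0.19 (SE), or 2.1-fold, with a limma adjusted p of 6.02e-06. Against the matched input set it was 0.90 ± 0.23, below the 2-fold limit of a call (limma adjusted p = 0.00214), and with the replicate number as a block the SE of this value fell to 0.06 (limma adjusted p = 5.24e-07). FPKM are shares of a library, so more of one RNA and less of all others cannot be told apart.

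SETD1B mRNA, which encodes 1 of the catalytic subunits, was at 13.2, 11 and 17.6 FPKM in WDR5 fRIP and at 5.11 to 7.51 in input. Every fRIP library exceeded every input. The log2 fold change of 1.07 ± 0.13 (limma adjusted p = 6.29e-10) was 1.13 ± 0.16 against the matched set. Replicate 3 was also the shallowest WDR5 fRIP library, at 8210000 fragments beside 23300000 and 28400000. Without it, both mRNAs fell below the 2-fold limit (WDR5 0.79, limma adjusted p = 0.00281; SETD1B 0.90, limma adjusted p = 1.61e-06), so no member was then called. In exact permutation tests of 3 against 9 libraries, both reached the smallest p that this design allows (two-sided p = 0.00455; 0.0152 adjusted over 30 tests).

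These 2 of 10 mRNAs stand beside 10.6% of all tested genes called in WDR5 fRIP. The other 8 had log2 fold changes between -0.37 (PHF8) and 0.59 (MEN1). RBBP5 mRNA was at 30.5, 31 and 35.9 FPKM against 18.4 to 25.2 in input, a difference of 0.49 ± 0.11 (limma adjusted p = 0.000302) that is less than 2-fold. MEN1 mRNA, at 20.3, 21.9 and 26.7 FPKM against 12.4 to 19.3, also lay above every input (0.59 ± 0.17, limma adjusted p = 0.00479), and against the matched set it was 0.47, with a limma adjusted p of 0.0955 without and 0.0123 with the replicate block. PHF8 mRNA was below every input, at 14.9, 13.1 and 12.3 FPKM against 15 to 21.1 (-0.37 ± 0.15, limma adjusted p = 0.0426; exact permutation p = 0.00909, 0.0273 adjusted), but its limma adjusted p was 0.528 against the matched set and 0.961 with centred libraries. The members' median was 0.43, and the median of all genes was -0.13. Each library centred on its median raised both called values to 1.45.

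By limma, RBBP5 fRIP changed none of the 10 mRNAs by more than 2-fold, against 3.01% of all genes called in this fRIP. Of the 10, 3 had an unadjusted p under 0.05, 2 of them also after adjustment. RBBP5, a partner of ASH2L in activating the methyltransferase, had 25.1, 27.2 and 27.4 FPKM of its own mRNA there and 18.4 to 25.2 in input, and the groups overlapped at their edge. The log2 difference of 0.22 ± 0.11 did not pass (limma adjusted p = 0.18; exact permutation p = 0.0227, 0.0524 adjusted). MEN1 mRNA was lower, at 7.5, 11.3 and 7.98 FPKM against 12.4 to 19.3, and all 3 libraries lay below all inputs. Its log2 difference was -0.69 ± 0.17 (limma adjusted p = 0.00187) and its exact permutation p was 0.00455 (0.0152 adjusted). SETD1B mRNA was likewise below every input, at 4.07, 4.25 and 4.41 FPKM, with a log2 difference of -0.42 ± 0.13 (limma adjusted p = 0.0133), which was -0.35 with an adjusted p of 0.123 against the matched set. The members' median was -0.28 beside 0.02 over all genes.

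Since WDR5 and RBBP5 sit in the same core, their fRIPs were compared with each other, without input. Of the 10 mRNAs, 2 were called, beside 18.0% of all genes, and both were higher in WDR5 fRIP. SETD1B mRNA had a mean of 13.9 FPKM with WDR5 and 4.24 FPKM with RBBP5, a log2 difference of 1.49 ± 0.16 or 2.8-fold (limma adjusted p = 1.25e-11). MEN1 mRNA had means of 23 and 8.94 FPKM, a log2 difference of 1.28 ± 0.21 or 2.43-fold (limma adjusted p = 1.08e-06). WDR5 mRNA (0.95 ± 0.23, limma adjusted p = 0.000663) and SETD1A mRNA (0.91 ± 0.22, limma adjusted p = 0.00044) passed in p but not in fold. RBBP5 mRNA differed by 0.28 ± 0.14 (limma adjusted p = 0.111). With the replicate number as a block, among the fRIPs matched to input set 2 and that set, RBBP5 (limma adjusted p = 0.0132), DPY30 (0.47, limma adjusted p = 0.00104), HCFC1 (0.66, limma adjusted p = 0.000138) and ASH2L mRNA (-0.19, limma adjusted p = 0.0466) passed in p as well, but with the block over all libraries these did not (limma adjusted p from 0.0544 to 0.113). The block within set 2 also joins RBBP5 fRIP with that set, which were not taken as paired. Centring the libraries moved the median of all genes in this comparison from -0.11 to 0.45 and the number called to 6, adding WDR5, DPY30, SETD1A and HCFC1, all higher with WDR5, and without WDR5 fRIP replicate 2 or RBBP5 fRIP replicate 3 the number was 4.

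**Figure D1:**
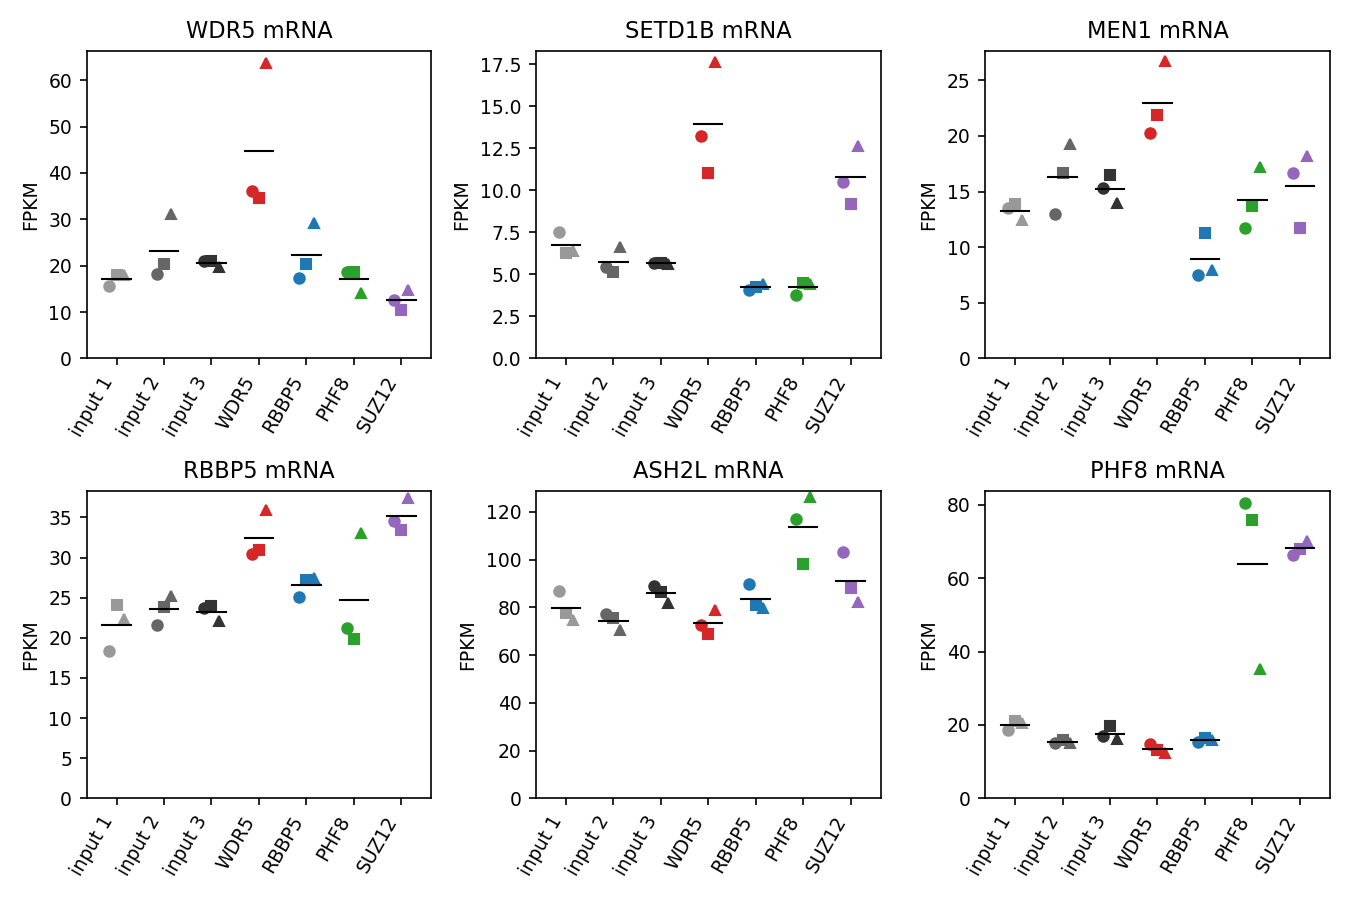
FPKM of 6 of the mRNAs (y axis) in each library of the 3 input sets and of WDR5, RBBP5, PHF8 and SUZ12 fRIP (x axis); circles, squares and triangles are replicates 1, 2 and 3 and the line is the mean. WDR5 and SETD1B mRNA stand above all inputs in WDR5 fRIP, and PHF8 mRNA in PHF8 and SUZ12 fRIP, where PHF8 fRIP replicate 3 (35.2 FPKM) is the lowest.

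PHF8 fRIP enriched the mRNA of PHF8 itself. The level was 80.5, 76 and 35.2 FPKM in PHF8 fRIP and 15 to 21.1 in input. Every fRIP library was above every input, and replicate 3 was far below replicates 1 and 2. The log2 fold change was 1.72 ± 0.15, or 3.29-fold (limma adjusted p = 3.22e-14). It was 1.72 ± 0.17 against the matched set and between 1.51 and 2.09 when any 1 PHF8 library was left out. No other member was called, and 1 of 10 compares with 4.90% of all genes. ASH2L mRNA came nearest with 117, 98.3 and 126 FPKM against 70.5 to 88.9, a log2 difference of 0.50 ± 0.08 (limma adjusted p = 2.58e-06). SETD1B mRNA lay below every input at 3.79, 4.49 and 4.43 FPKM, a log2 difference of -0.42 ± 0.13 (limma adjusted p = 0.01; 0.105 against the matched set). The members' median was 0.16 and that of all genes 0.08.

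Over all 24 fRIPs there were 240 pairs of an mRNA and a fRIP. Of these, 18 (7.50%) were enriched and 8 (3.33%) depleted, where 6.90% and 5.52% of all gene and fRIP pairs were. The members were thus called about as often as other genes. Against the matched input sets the counts were 20 and 6, beside 6.24% and 5.61% of all pairs. With centred libraries they were 25 and 22, beside 7.04% and 6.58%, and 9 of the 22 depleted pairs were then in ADAR fRIP, whose libraries were the shallowest (1900000 to 2320000 fragments) and in which no member was called by limma without centring (3 had an unadjusted p under 0.05). Centring raised the share of all genes depleted in ADAR fRIP from 4.31% to 35.2%. A further 5, those of WDR5 (-1.21), DPY30 (-1.56), SETD1A (-1.01), MEN1 (-1.54) and CXXC1 (-1.30), were in HNRNPU fRIP, where centring moved the median of all genes from 0.16 to -0.43 and the share depleted from 2.52% to 13.7%. No member was called by limma there without it (8 had an unadjusted p under 0.05, 6 also after adjustment). Against the 9 inputs and without centring, the calls fell in 12 of the 24 fRIPs.

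**Figure D2:**
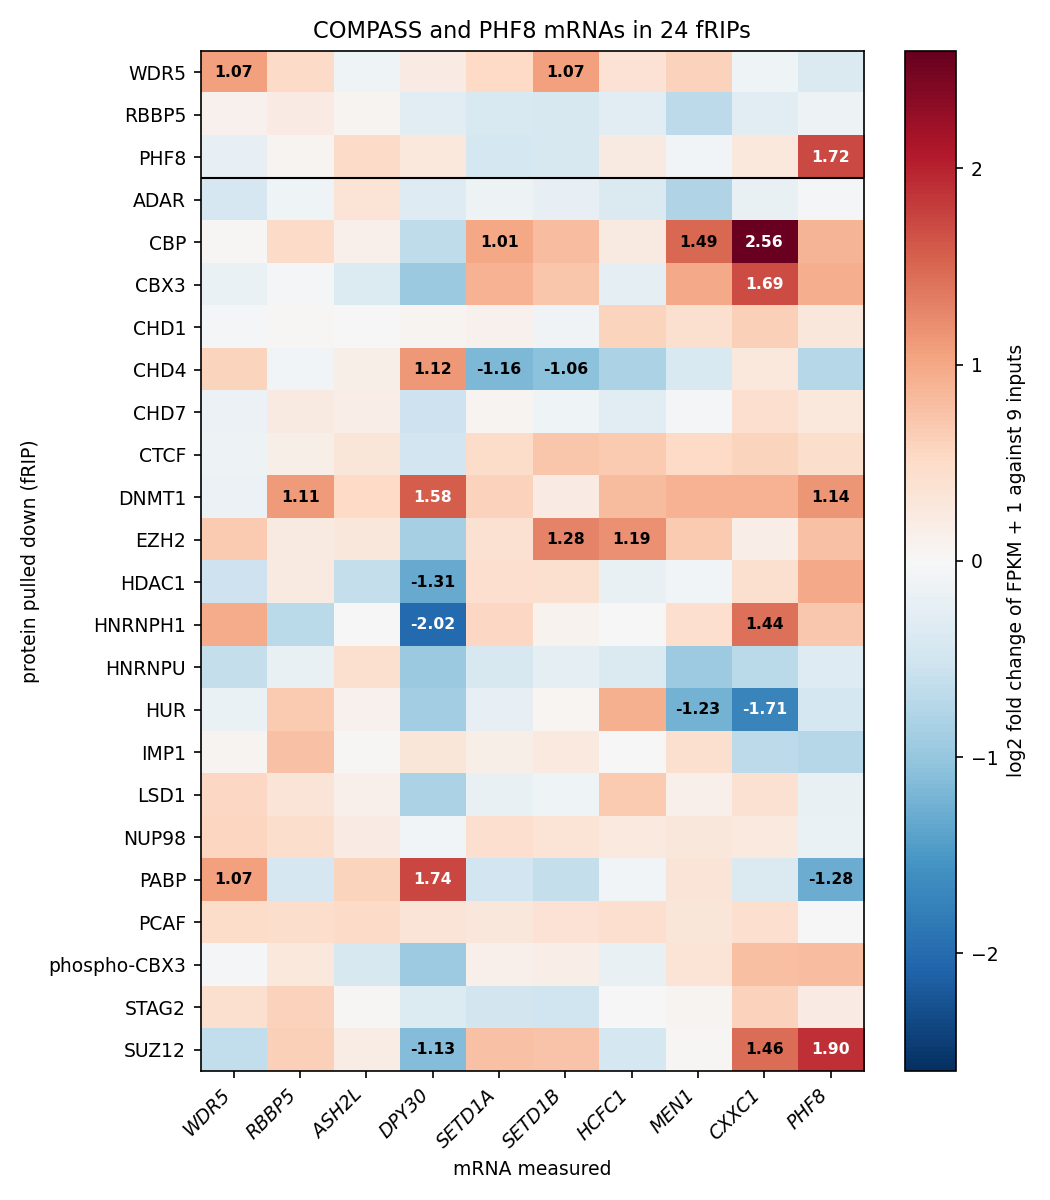
Log2 fold change of FPKM + 1 against the 9 inputs (colour) for each mRNA (x axis) in each fRIP (y axis), with WDR5, RBBP5 and PHF8 fRIP on top; numbers mark the pairs called. The darkest cells are CXXC1 mRNA in CBP fRIP (2.56) and DPY30 mRNA in HNRNPH1 fRIP (-2.02), and ASH2L has no number in its column.

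Among the core subunits, WDR5 mRNA was also enriched in fRIP of PABP, the protein that binds poly(A) tails, where it reached 41.8, 49.3 and 39 FPKM (log2 fold change 1.07 ± 0.19, limma adjusted p = 2.34e-06). Against the 9 inputs it was called in no other fRIP, and its lowest value was -0.63 in SUZ12 fRIP. In HNRNPH1 fRIP, at 38.4, 35.2 and 47.7 FPKM, it lay just below the 2-fold limit (0.97 ± 0.19) and was called against the matched set (1.18 ± 0.23, limma adjusted p = 1.99e-05), but with centred libraries it was at 0.24 (limma adjusted p = 0.365). RBBP5 mRNA was enriched in fRIP of the DNA methyltransferase DNMT1, at 48.2, 44.5 and 59.4 FPKM (1.11 ± 0.11, limma adjusted p = 1.75e-12), and against the 9 inputs in no other. The rise lay in 1 of its isoforms, ENST00000484379.1, a transcript without a defined coding sequence, which was at 29.6, 27.8 and 40.3 FPKM there and at most 3.58 in input (4.18 ± 0.59, limma adjusted p = 3.68e-08; 19.3% of all isoforms called). The coding isoforms of RBBP5 were not called there, with ENST00000264515.6 at 14.3, 11.5 and 13.1 FPKM against 12.9 to 18.2 and ENST00000367164.1 at 4.28, 5.25 and 6.04 against 4.75 to 7.65. ENST00000484379.1 has 367 bases, against 4367 and 4290 for these, so fewer fragments make up the same FPKM. The gene value in DNMT1 fRIP is thus no gain of coding RBBP5 mRNA. ASH2L mRNA was called by limma in none of the 24 fRIPs (in 15 the unadjusted p was under 0.05, in 12 also the adjusted p, and none reached 2-fold), with values from -0.62 in HDAC1 fRIP to 0.58 in PABP fRIP. With centred libraries ASH2L was enriched in PABP (1.07, limma adjusted p = 7.39e-16) and in fRIP of the acetyltransferase PCAF (1.10, limma adjusted p = 4.86e-15), RBBP5 in fRIP of the mRNA-binding protein IMP1 (1.21) and in PCAF fRIP (1.07) and WDR5 in PCAF fRIP (1.08), while RBBP5 fell in HNRNPH1 (-1.44) and ADAR fRIP (-1.09) and WDR5 in HNRNPU (-1.21) and ADAR fRIP (-1.41).

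DPY30, the smallest core subunit, had the widest range of the core, being enriched in 3 fRIPs and depleted in 3. It was at 108, 99.2 and 122 FPKM in PABP fRIP, where 25.8% of genes were called, 86.8, 91.2 and 118 in DNMT1 fRIP, with 16.4% called, and 83.9, 47 and 88.7 in CHD4 fRIP, with 12.7% called, against 19.6 to 42.8 in input. These values exceeded all inputs. The log2 fold changes were 1.74, 1.58 and 1.12 (SE 0.18 each). It was lowest in fRIP of the splicing regulator HNRNPH1, at 5.48, 9.16 and 7.24 FPKM (-2.02 ± 0.18, limma adjusted p = 4.23e-15), where 32.4% of genes were called. It also fell in HDAC1 fRIP (-1.31 ± 0.18; 13.8% of genes called) and in SUZ12 fRIP (-1.13 ± 0.18; 23.9% called), but against the matched input set 1, in which its mean was 24.3 FPKM, these became -0.91 and -0.73 and were not called. With centred libraries DPY30 was enriched in 3 and depleted in 7 fRIPs, the latter adding CBX3 (-1.11), HUR (-1.15), HNRNPU (-1.56) and ADAR fRIP (-1.31).

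The 2 catalytic subunits moved alike in part. In fRIP of the chromatin remodeler CHD4 both were depleted: SETD1A to 2.25, 1.78 and 2.92 FPKM (-1.16 ± 0.18, limma adjusted p = 2.11e-07) and SETD1B to 2.57, 1.98 and 2.57 FPKM (-1.06 ± 0.13, limma adjusted p = 6.96e-10). With centred libraries these were -0.75 and -0.66, and neither was called. SETD1A was enriched in fRIP of the acetyltransferase CBP (14.7, 12.5 and 14 FPKM, 1.01 ± 0.18, limma adjusted p = 3.5e-06). SETD1B was enriched in fRIP of EZH2, the methyltransferase of the Polycomb complex PRC2, with 15.1 and 17 FPKM in its 2 libraries (1.28 ± 0.15, limma adjusted p = 1.47e-10; 19.6% of genes called). HCFC1 was enriched there as well, but its 2 libraries, 79.6 and 40.3 FPKM, were far apart (1.19 ± 0.29, limma adjusted p = 0.000529).

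CXXC1 was enriched in 4 fRIPs, the most of the 10, and depleted in 1. Against 18.4 to 28.9 FPKM in input, it reached 150, 126 and 142 FPKM in CBP fRIP (12.9% of genes called), a log2 fold change of 2.56 ± 0.14 or 5.91-fold (limma adjusted p = 5.42e-23). It was at 61.8, 78.5 and 89.3 FPKM in fRIP of the heterochromatin protein CBX3 (1.69 ± 0.14; 11.1% of genes called), at 63.4, 62.3 and 68 in fRIP of the PRC2 subunit SUZ12 (1.46 ± 0.14) and at 81.9, 45.6 and 67.9 in HNRNPH1 fRIP (1.44 ± 0.14, but 0.70 and not called with centred libraries). With centred libraries it was enriched in 4 fRIPs, PCAF (1.06) in place of HNRNPH1, and depleted in 3, with HNRNPU (-1.30) and ADAR (-1.18) beside HUR (-1.96). In fRIP of HUR, which binds AU-rich RNA, it dropped to 6.47, 5.56 and 6.89 FPKM (-1.71 ± 0.14, limma adjusted p = 2.18e-15; 13.4% of genes called). MEN1 shared the ends of this pattern, at 41.9, 40.7 and 48.5 FPKM in CBP fRIP (1.49 ± 0.17, limma adjusted p = 8.91e-11) and at 4.72, 5.67 and 7.14 FPKM in HUR fRIP (-1.23 ± 0.17, limma adjusted p = 2.68e-08). MEN1 also lay above every input in CBX3 fRIP (27.9, 26.7 and 37.3 FPKM, 0.98 ± 0.17) and DNMT1 fRIP (30.2, 25.4 and 30.7 FPKM, 0.91 ± 0.17), below the 2-fold limit, and was called there against the matched sets (1.13 and 1.06, limma adjusted p = 2.45e-05 and 3.59e-05), but not with centred libraries (0.85 and 0.99).

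CXXC1 RNA in the fRIPs that enriched it was of another make-up than in input. GENCODE lists 10 retained-intron isoforms of this gene, transcripts that keep an intron and are mostly held back from translation. They made up 31.5% ± 7.82 of CXXC1 FPKM in input (range 14.1 to 42.8, n = 9), but 70.1% ± 3.82 in CBP, 62.3% ± 2.08 in CBX3, 67.2% ± 2.32 in SUZ12 and 77.4% ± 3.08 in HNRNPH1 fRIP (n = 3 each). All libraries of these 4 fRIPs lay above all inputs. PHF8 fRIP, in which CXXC1 was not called, was also above at 56.7 to 58%, as was HNRNPU fRIP at 47 to 69.1%. PABP fRIP had 14.9% ± 4.48 and WDR5 fRIP 35.7% ± 6.5.

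The isoforms were also tested singly. Of the 16 CXXC1 isoforms tested, 10 were retained-intron isoforms. In CBP fRIP 12 of the 16 were enriched, 9 of them retained-intron isoforms, where 15.7% of all isoforms were called. All 8 enriched in CBX3 fRIP (16.4% called), 7 of 8 in HNRNPH1 fRIP (31.7% called) and 5 of 6 in SUZ12 fRIP (27.8% called) were of that class. Since most isoforms tested were of this class, these counts by themselves say little about a preference for it. The retained-intron isoform ENST00000592078.1 had 38.8, 31.6 and 28 FPKM in CBP fRIP and 0.953 to 2.94 in input (log2 fold change 3.49, limma adjusted p = 1.26e-11). The coding isoform ENST00000412036.2 had 14.9, 15 and 13.2 FPKM there and 4.53 to 8.41 in input (1.15, limma adjusted p = 0.000442). The share was chosen after its values were seen and is a description, and unspliced pre-mRNA, which the isoform table does not hold, was not analysed here.

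**Figure D3:**
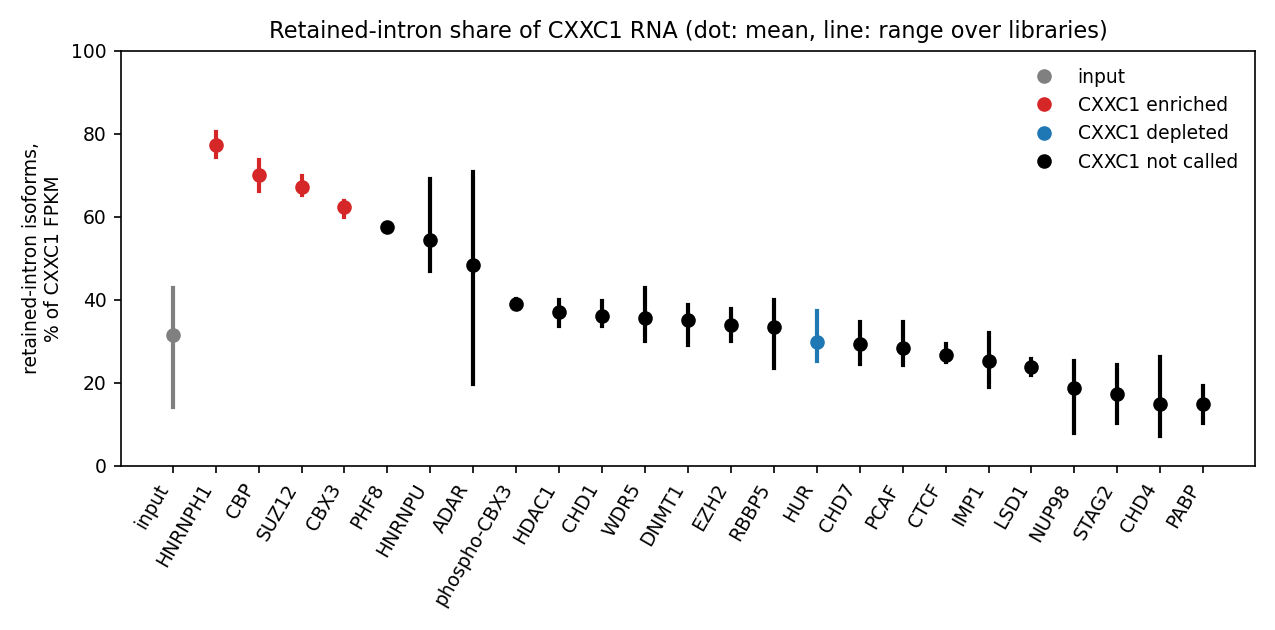
Share of CXXC1 FPKM carried by its 10 retained-intron isoforms (y axis, %) in input and in each fRIP, ordered by mean (x axis); dots are means, lines the range over libraries. The 4 fRIPs in which CXXC1 was enriched have the 4 highest means, from 62.3% to 77.4%, beside 31.5% in input.

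PHF8 mRNA was enriched in 3 fRIPs, those of PHF8, SUZ12 and DNMT1, and depleted in PABP fRIP. In SUZ12 fRIP it was at 66.4, 67.9 and 70.2 FPKM (1.90 ± 0.15, limma adjusted p = 1.51e-17), in DNMT1 fRIP at 41.2, 38.1 and 40.6 (1.14 ± 0.15; 0.96 and not called against the matched set) and in PABP fRIP at 6.52, 7.55 and 5.94 (-1.28 ± 0.15; -0.79 and not called with centred libraries). The means of 63.9 FPKM in PHF8 and 68.2 FPKM in SUZ12 fRIP differed by a log2 of -0.18 ± 0.18 (limma adjusted p = 0.446), and of the PHF8 fRIP libraries, replicates 1 and 2 lay above and replicate 3 below all of SUZ12 fRIP. The isoforms behind these levels were not the same.

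PHF8 lies on the minus strand of chromosome X (chrX:53963109-54075391, GRCh37), and its transcripts end in different last exons. The last 30 coding bases of 3 of its isoforms are given here because these isoforms differed between PHF8 and SUZ12 fRIP and have different stop codons. They were read from GRCh37 at the stop codons of GENCODE v44, 5′ to 3′, with the stop codon in capitals.
ENST00000338154.6: atccacagaaatggcaaactacttctgTGA
ENST00000396282.2: aagttgaagagaagagacgcccatccgTGA
ENST00000322659.8: atgaagctctcattaactgactcaggaTAA
The first lies at chrX:53965591-53965620, the second at chrX:53964414-53964443 and the third at chrX:53969797-53969826, each inside the last exon of its transcript. These stretches occur in 3, 4 and 2 of the PHF8 isoforms of the table, respectively. The second also lies in ENST00000338154.6, past its stop codon, and so does not tell it from ENST00000396282.2. The isoforms differ in their first exons as well, so these ends are not the only place where they part. The transcript versions are newer in GENCODE v44 than in the deposited table, so that exons may differ from those the authors counted.

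Of the isoforms with the distal ends, 3 rose in PHF8 fRIP. ENST00000338154.6, the leading isoform in input, was at 14.9, 16.3 and 7.26 FPKM in PHF8 fRIP, at 3.83, 3.4 and 2.87 in SUZ12 fRIP and at 2.75 to 4.36 in input. Its log2 fold change was 1.52 ± 0.19 in PHF8 fRIP (limma adjusted p = 5.52e-09) and -0.07 in SUZ12 fRIP. Its share of PHF8 FPKM was 20.2% ± 1.53 in PHF8 fRIP and 20.6% ± 3.79 in input (exact permutation p = 0.877, 0.922 adjusted). ENST00000396282.2 was at 23, 18.2 and 6.62 FPKM in PHF8 fRIP and at 4.43, 5.06 and 4.28 in SUZ12 fRIP, against 0.744 to 2.89 in input, and rose in both (2.67 ± 0.37 and 1.22 ± 0.37, limma adjusted p = 1.23e-07 and 0.00512). ENST00000338946.6 rose in PHF8 fRIP at 10.5, 10.5 and 2.18 FPKM against 2.08 to 3.42 in input (1.02 ± 0.31, limma adjusted p = 0.0108), its last library within the input range. The fourth, ENST00000357988.5, was at most 0.46 FPKM in all these libraries and was not called.

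Of the isoforms with the proximal end, ENST00000322659.8 showed the reverse. It was at 25.1, 27.2 and 33.1 FPKM in SUZ12 fRIP, at 7.04, 3.85 and 0.0024 in PHF8 fRIP and at 1.22 to 4.77 in input. It rose 7.54-fold in SUZ12 fRIP (log2 2.91 ± 0.33, limma adjusted p = 4.62e-11), and its PHF8 fRIP value of -0.19 was not called. The level of 0.0024 FPKM can be a failed estimate, and it lowers the PHF8 fRIP mean here and in the direct comparison below. The other, ENST00000443302.1, was called in neither (0.94 ± 0.19 in PHF8 and 0.67 ± 0.19 in SUZ12 fRIP). Compared directly, a comparison chosen after the values were seen, PHF8 fRIP minus SUZ12 fRIP was -3.11 ± 0.40 for ENST00000322659.8 (limma adjusted p = 5.94e-09), 1.60 ± 0.23 for ENST00000338154.6 (limma adjusted p = 6.13e-08) and 1.44 ± 0.45 for ENST00000396282.2 (limma adjusted p = 0.00967), where 23.5% of all isoforms were called. The coding isoform ENST00000415025.1 rose in both, to 17.5, 8.43 and 8.27 FPKM in PHF8 fRIP and 8.41, 7.58 and 5.92 in SUZ12 fRIP from 0.349 to 2.04 in input (2.45 ± 0.36 and 1.94 ± 0.36), and the direct difference of 0.51 ± 0.44 was not called (limma adjusted p = 0.413). Of the other PHF8 isoforms, ENST00000448003.1 (-2.81) and ENST00000494928.1 (-1.84) were higher in SUZ12 fRIP and ENST00000445025.1 (1.21) in PHF8 fRIP, the last by a single library (11.4 FPKM). After SUZ12 fRIP, the highest means of ENST00000322659.8 were 14.5 FPKM in HDAC1, 11.6 in phospho-CBX3, 10.1 in DNMT1, 9.75 in CBX3 and 8.33 in CBP fRIP.

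**Figure D4:**
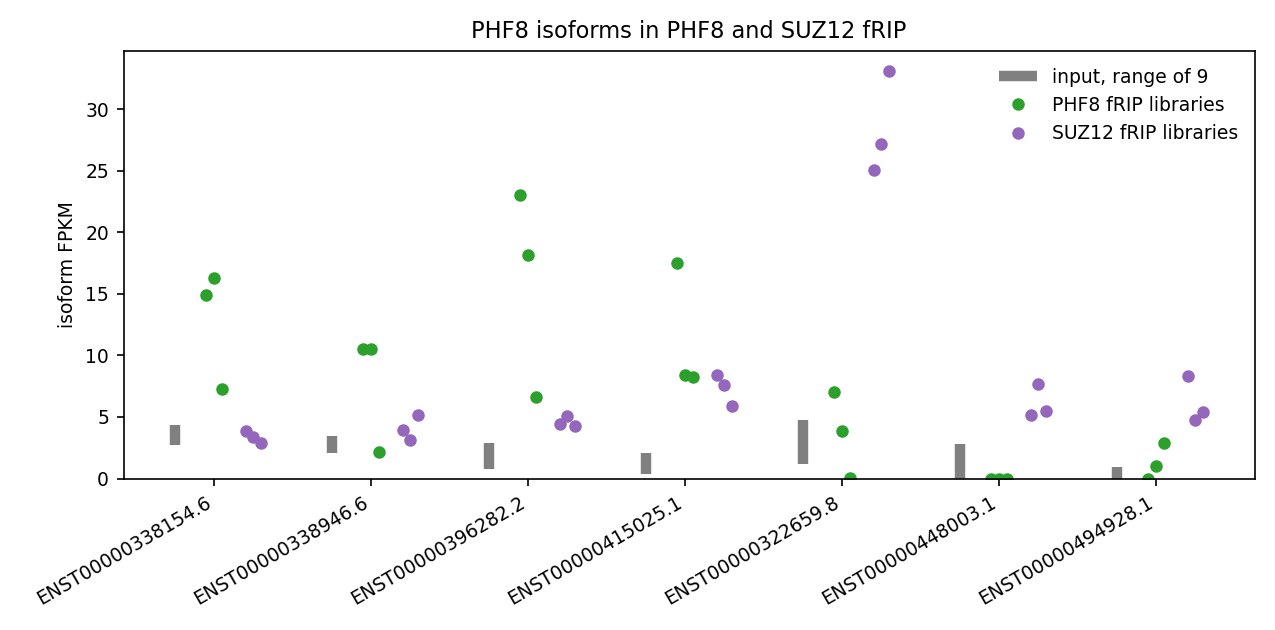
FPKM (y axis) of 7 PHF8 isoforms (x axis) in the 3 PHF8 fRIP and the 3 SUZ12 fRIP libraries (dots) and the range over the 9 inputs (grey bar). ENST00000322659.8 reaches 25.1 to 33.1 FPKM in SUZ12 fRIP and at most 7.04 in PHF8 fRIP, and ENST00000338154.6 reaches 7.26 to 16.3 FPKM in PHF8 fRIP and at most 3.83 in SUZ12 fRIP.

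**Figure D5:**
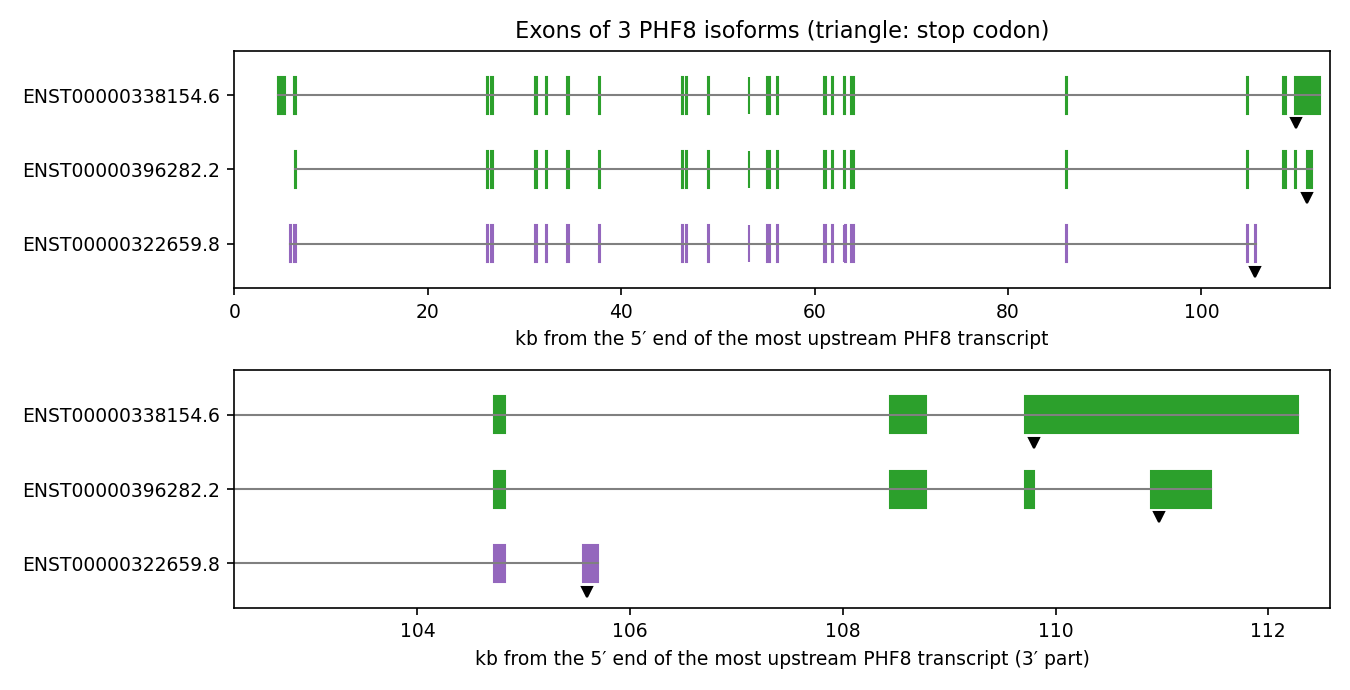
Exons (boxes) of 3 PHF8 isoforms in GENCODE v44, in kb from the 5′ end of the most upstream of the transcripts (x axis), whole above and the 3′ part enlarged below; triangles mark stop codons. ENST00000322659.8 ends in an exon at about 105.6 kb, upstream of the last exons of the other isoforms drawn.

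Over the members, 12 of the 79 isoforms were called in PHF8 fRIP (10.0% of all isoforms), 5 in WDR5 fRIP (8.74%) and 4 in RBBP5 fRIP (5.92%). Against the matched sets these numbers were 16, 3 and 2, and with a pseudocount of 0.1 they were 17, 9 and 3. Of the 12, 5 belonged to PHF8, all enriched, but ENST00000445025.1 rested on 1 library (11.4 FPKM, and 0 in the other PHF8 fRIP libraries). MEN1 isoform ENST00000312049.6 fell in PHF8 fRIP to 1.3, 0 and 3.23 FPKM from 5.32 to 8.01 in input (-1.85 ± 0.31, limma adjusted p = 7.39e-06). Its share of MEN1 FPKM was 9.95% ± 9.45 there and 45.4% ± 6.56 in input (exact permutation p = 0.00455, 0.0273 adjusted over 30 tests), while the gene as a whole was at -0.07 ± 0.17 (limma adjusted p = 0.813). The level of 0 can be a failed estimate, and both the isoform test and the share include it. In WDR5 fRIP the same isoform was at 11.7, 11.9 and 11.7 FPKM and in RBBP5 fRIP at 2.9, 4.19 and 1.96, a log2 difference of 1.71 ± 0.38 (limma adjusted p = 0.000338).

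ASH2L, which was not called as a gene, differed in its isoforms. ENST00000524263.1, a transcript without an annotated coding sequence, was at 14.9, 9.86 and 15.6 FPKM in PHF8 fRIP, 7.84, 9.92 and 11.5 in RBBP5 fRIP and 0.561, 0.0894 and 1.2 in WDR5 fRIP, against 1.67 to 6.32 in input. It rose in PHF8 and RBBP5 fRIP (1.65 ± 0.31 and 1.23 ± 0.31) and fell in WDR5 fRIP (-1.55 ± 0.31, limma adjusted p = 8.13e-05), and WDR5 minus RBBP5 was -2.78 ± 0.37 (limma adjusted p = 1.81e-08). The retained-intron isoforms of ASH2L made up 8.68% ± 3.17 of its FPKM in input, 21.5% ± 1.44 in PHF8, 16.8% ± 3.21 in RBBP5 and 3.17% ± 2.86 in WDR5 fRIP. The highest share was 36% ± 7.89 in ADAR fRIP and the lowest 0.273% ± 0.226 in PABP fRIP.

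The rise of SETD1B in WDR5 fRIP lay in 1 of its 3 isoforms. ENST00000267197.5 was at 12, 9.8 and 16.5 FPKM there and at 3.46 to 5.2 in input (1.35 ± 0.25, limma adjusted p = 2.81e-05), and its share of SETD1B FPKM was 91.3% ± 2.18 against 71.7% ± 3.21 (exact permutation p = 0.00455, 0.0273 adjusted). Against RBBP5 fRIP, where it was at 2.86 to 3.26 FPKM, the log2 difference was 1.73 ± 0.31 (limma adjusted p = 7.76e-06). ENST00000604567.1 was at 1.2, 1.16 and 1.11 FPKM in WDR5 fRIP and at 1.31 to 2.31 in input, and was not called. In SUZ12 fRIP it was the other isoform that rose, ENST00000604567.1 at 7.33, 6.37 and 9.16 FPKM (1.71 ± 0.16, limma adjusted p = 1.23e-13), while ENST00000267197.5 was at 2.82 to 3.41. The same isoform rose in CBP (1.47), CBX3 (1.46), CTCF (1.25), DNMT1 (1.15) and EZH2 fRIP (1.00), and ENST00000267197.5 rose in EZH2 fRIP as well (1.27). Of the 2 WDR5 isoforms, ENST00000358625.3 was called in WDR5 fRIP at 18.5, 22.1 and 28.4 FPKM against 4.15 to 13.2 (1.37 ± 0.47, limma adjusted p = 0.0316; not called against the matched set), and ENST00000425041.1, at 17.6, 12.5 and 35.3 against 8.55 to 18, was not (0.76 ± 0.36, limma adjusted p = 0.158).

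With centred libraries HCFC1 mRNA was also enriched in LSD1 (1.09) and PCAF fRIP (1.04). HCFC1 RNA changed its isoforms in fRIPs where the gene as a whole was not called against the 9 inputs. In HUR fRIP the gene was at 60.2, 48.1 and 35.4 FPKM (0.92 ± 0.25, limma adjusted p = 0.00169), overlapping the inputs, and was called against the matched set alone (1.08 ± 0.30, limma adjusted p = 0.00319), and with centred libraries it was at 0.67 (limma adjusted p = 0.0505). ENST00000444191.1 was at 0 FPKM (under 0.001) in all 9 inputs, at 30.5, 16.6 and 13.1 FPKM in HUR fRIP, at 18.5, 15.5 and 17.5 in PABP fRIP and at 5.42, 4.66 and 8.14 in CHD4 fRIP, and was called in each, beside 11.2%, 25.8% and 16.2% of all isoforms. The leading isoform ENST00000310441.7 fell in PABP fRIP to 4.01, 3.97 and 3.15 FPKM from 14.1 to 32.2 (-2.01 ± 0.23, limma adjusted p = 1.05e-10) and in CHD4 fRIP (-1.50 ± 0.23). In HUR fRIP it was at 22.6, 15.6 and 15.1 FPKM and was not called. ENST00000444191.1 was also called in ADAR fRIP, at 0.423, 2.35 and 3.11 FPKM. A value of 0 in an isoform table can be a failed estimate, so no fold or p-value is given. With every input at 0, the calls of ENST00000444191.1 only restate that it was detected in these fRIPs.

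Of 14 other COMPASS-family genes, 3 were enriched in WDR5 fRIP (10.6% of all genes called), 0 in RBBP5 fRIP (3.01%) and 2 in PHF8 fRIP (4.90%), with none depleted. The 3 were WDR82, which links SETD1 to RNA polymerase II (55.1, 64.5 and 97.6 FPKM against 18.4 to 33.6 in input, 1.65 ± 0.16), NCOA6, a coactivator subunit (17.5, 15.7 and 26.7 against 6.14 to 7.77, 1.35 ± 0.15), and PAGR1 (15.4, 16.8 and 24.9 against 5.82 to 11.8, 1.17 ± 0.20). WDR82 (1.11 ± 0.16) and PAGR1 (1.34 ± 0.20) were also those called in PHF8 fRIP. Between WDR5 and RBBP5 fRIP these 3 and KMT2D (1.03 ± 0.19) were called, all higher with WDR5, beside 18.0% of all genes. In RBBP5 fRIP, where none was called by limma (6 had an unadjusted p under 0.05, and the same number after adjustment, all less than 2-fold), values ranged from -0.61 to 0.59.

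Of 7 demethylases related to PHF8 or acting on lysine 4, 1 was called in WDR5 fRIP, beside the same 10.6%. PHF2, of the same family as PHF8, was enriched in WDR5 fRIP, at 30.7, 26.5 and 28.2 FPKM against 6.9 to 9.34 (1.68 ± 0.09, limma adjusted p = 3.86e-22), and was higher by 1.87 ± 0.11 than in RBBP5 fRIP. None was called by limma in RBBP5 or PHF8 fRIP, where 2 and 4 had an unadjusted p under 0.05, and 1 and 3 after adjustment, all less than 2-fold. The genes whose 24 log2 fold changes were most like those of WDR5, among 11532 genes with a mean of at least 5 FPKM, were YKT6, TMEM158 and TSR3 (Pearson r 0.90, 0.89 and 0.89). For RBBP5 they were TXNRD1, NEDD1 and FOXN2 (0.85, 0.81 and 0.78), and for PHF8 they were KDM5C, PTK2B and CFLAR (0.93, 0.90 and 0.88), KDM5C being a demethylase of the list above. All points share the 9 inputs, so these are descriptions. Among the members, SETD1A and SETD1B (r = 0.87) and MEN1 and CXXC1 (0.73) were the most alike, and WDR5 with SETD1B was at -0.02.

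In GRCh37, WDR5 lies at chr9:137000487-137025090 on the plus strand, RBBP5 at chr1:205055270-205091143 on the minus strand, SETD1B at chr12:122241915-122270562 on the plus strand and CXXC1 at chr18:47808713-47814209 on the minus strand. Leading transcripts ranged from 688 bases and 5 exons for DPY30 to 8876 bases and 26 exons for HCFC1. The median was 1746 bases over 15185 leading transcripts, which do not cover all genes. Those of WDR5 and SETD1B were not found in GENCODE v44, and the next isoform stands in for them. SETD1A shares exon sequence with an unnamed transcript on the opposite strand, and since the use of strand in counting is not given, its reads and those of that transcript cannot be told apart.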

How the data were processed

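K562 fRIP and input RNA was sequenced by the authors, aligned to hg19 with TopHat and quantified on GENCODE v18 with Cufflinks tools. FPKM per library stand in the deposited tables of genes and isoforms, as the authors made them. How reads were filtered and whether strand was used is not stated in the paper or labels. The deposited table of comparisons also holds fold changes, p-values and q-values of the authors, which were not used. Its pooled input FPKM, deposited by the authors as other pooled values, served only to match each protein to an input set.

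FPKM are not counts, so log2(FPKM + 1) was fitted for 25442 genes, those reaching 1 FPKM in 2 or more of 79 libraries, with limma 3.58.1 (intensity trend, R 4.3.3), a mean per protein and 1 mean over the 9 inputs. P-values were Benjamini-Hochberg adjusted over all genes within a comparison. Genes were called where the adjusted p was below 0.05 and the fold change above 2. These values are on the log2(FPKM + 1) scale and understate those of low genes. The 104506 isoforms were fitted alike. Two-sided exact permutation tests of 3 against 9 libraries were adjusted over 30 tests. Depth was estimated from low FPKM values, of which 97.8% to 99.4% per library lay within 0.15 of a whole multiple of 1 fragment. The fits were tested on simulated data. Tables used Python 3.11.15 with pandas 2.3.3 and numpy 2.4.6, and figures matplotlib 3.10.9.

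Groups came from the labels. The labels number the STAG2 libraries otherwise than the table, so its second library was used without a number. Same-numbered libraries deviated together for WDR5 fRIP and input set 2 (r = 0.36, 0.17 and 0.50) and for WDR5 and RBBP5 fRIP (0.28, 0.15 and 0.43), so these were taken as paired, from the data alone, but not for RBBP5 fRIP and set 2 (0.29, 0.09 and 0.45) or PHF8 fRIP and set 3 (0.06, -0.03 and -0.05). Named genes are the 10 members with their isoforms, listed COMPASS-family and demethylase genes that were called, and for each of WDR5, RBBP5 and PHF8 the 3 genes most like it over the 24 fRIPs. Members and lists were chosen with earlier results of these data known. Of 86 isoforms, 79 were matched to GENCODE v44 on GRCh37 and 23 of them had the same version. A further marker of another cell type is not reported here.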

Additional observations from a re-analysis of the deposited data

Results flagged for a closer look

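WDR5 mRNA in replicate 3 of input set 2 was at 31.2 FPKM and HCFC1 mRNA in the same library at 38.9 FPKM, each far from the other 8 inputs of that gene. Chance flags about 5% of groups, and 10 genes were checked. WDR5 fRIP replicate 3 was also the highest of its group for both mRNAs. So was replicate 3 of the other fRIPs matched to set 2, those of RBBP5, CHD1, NUP98 and PCAF. Between WDR5 and RBBP5 fRIP, SETD1B mRNA differed by 1.49 on the log2 scale and MEN1 mRNA by 1.28, both by the limma test of the difference. By the same test WDR82 (1.17), NCOA6 (1.25), PAGR1 (1.46), KMT2D (1.03) and PHF2 mRNA (1.87), SETD1B isoform ENST00000267197.5 (1.73) and MEN1 isoform ENST00000312049.6 (1.71) were higher in WDR5 fRIP, and ASH2L isoform ENST00000524263.1 was lower (-2.78). Between PHF8 and SUZ12 fRIP, the PHF8 isoforms ENST00000322659.8 (-3.11), ENST00000448003.1 (-2.81), ENST00000494928.1 (-1.84), ENST00000338154.6 (1.60), ENST00000396282.2 (1.44) and ENST00000445025.1 (1.21) differed in opposite directions by the same test, while the difference of the gene as a whole (-0.18) was within its error. The value of ENST00000445025.1 rested on a single PHF8 fRIP library (11.4 FPKM), and ENST00000322659.8 was at 0.0024 FPKM in another.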

How the results depend on the processing

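Of 159 alternative values of the main results, 142 stayed on the same side of their limits. WDR5 mRNA in WDR5 fRIP was 0.90 against the matched input set (set 2), with or without the replicate block, and 0.79 to 1.22 with 1 library left out. The members called in WDR5 fRIP then numbered 1 with these inputs, 1 against input set 1 and 0 to 2 with 1 library left out. SETD1B mRNA fell to 0.93 there against input set 1. With the replicate block over all libraries (WDR5 mRNA in WDR5 fRIP 1.07) no call of the members in these fRIPs changed. Pairs depleted numbered 22 after centring and 14 against set 2. Members called between WDR5 and RBBP5 fRIP numbered 6 after centring and 2 to 4 with 1 library left out. Isoforms called in WDR5 fRIP numbered 9 with a pseudocount of 0.1 and 3 against the matched set, and in RBBP5 fRIP 2. Signs turned only in values that were not called. In WDR5 fRIP, ASH2L and CXXC1 (0.26 each) and PHF8 (0.01) turned after centring and DPY30 against set 2 (-0.10, blocked or not). In RBBP5 fRIP, WDR5 (-0.07) and ASH2L (-0.12) turned after centring, WDR5 (-0.06) and PHF8 (0.05) against set 2, ASH2L against set 3 (-0.04) and DPY30 against set 1 (0.13), and WDR5 was -0.09 to 0.27 with 1 library left out. In PHF8 fRIP, RBBP5 turned after centring (-0.14), DPY30 against set 2 (-0.03) and MEN1 against set 1 (0.08), and RBBP5 was -0.14 to 0.21 and MEN1 -0.21 to 0.05 with 1 library left out. The causes were not tested. RBBP5 and PHF8 fRIP hold at most 8230000 fragments a library, so isoforms near 1 FPKM rest on few fragments there.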
